A study of Homo sapiens with 4 samples.

Results

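The netrin receptors of the UNC5 and DCC families, 2 netrins and 2 FLRT genes were examined in SH-SY5Y cells, a human neuroblastoma line that can be differentiated into neuron-like cells. The 10 genes are UNC5A, UNC5B, UNC5C, UNC5D, DCC, NEO1, NTN1, NTN4, FLRT2 and FLRT3, out of 22465 genes with a single symbol on the array. UNC5D was selected on its own log2 difference between the groups in these same arrays, so its values are described without a test. The other 9 were taken by name as its paralogues, ligands and binding partners. Each of the 10 had a single transcript cluster, the set of probes that the platform assigns to a gene.

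The cells carried an shRNA against LSD1+8a (2 arrays) or a control shRNA (2 arrays). LSD1+8a, a neuronal isoform of LSD1 with an additional exon, is a product of the histone demethylase gene KDM1A. All cells were differentiated with 10 μM retinoic acid for 4 days and then with 50 ng/mL BDNF in medium without serum for 3 days. The labels give a single name for each hairpin, so an effect of the hairpin and an effect of its target cannot be told apart, and they do not say whether replicates came from separate cultures. KDM1A as a whole gene read 8.76 and 8.78 with the LSD1+8a shRNA and 9.10 and 9.25 with the control shRNA (log2 signal). The limma adjusted p was 0.0299, and 0.0573 after cyclic loess, and the difference was -0.48 to -0.33 with an array left out. The whole-gene value does not isolate the extra exon.

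Netrins are secreted cues that steer growing axons. DCC and its relative neogenin (NEO1) mediate attraction to netrin-1 (NTN1), while UNC5 receptors, alone or together with DCC, mediate repulsion. UNC5 receptors and DCC are also called dependence receptors, because without ligand they can promote cell death through a cytoplasmic death domain or a caspase-dependent fragment. FLRT proteins are leucine-rich adhesion molecules whose shed ectodomains bind UNC5 receptors and repel migrating neurons, and UNC5D is a receptor for FLRT2 in the developing cortex.

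Median signals were 6.20 and 6.25 on the LSD1+8a shRNA arrays and 6.19 and 6.16 on the control arrays (log2, 22465 genes), and the median difference between groups was 0.08. Limma called 23.3% of genes at an adjusted p of 0.05, with 12.1% of all genes higher in LSD1+8a shRNA cells and 11.2% lower, and the groups did not overlap for 74.4%. The background probes of GC count 13 to 18 had medians of 4.71 and 4.72 on the LSD1+8a shRNA arrays and 4.50 and 4.43 on the control arrays, a rough guide to where signal ends. Of 9 adrenergic neuroblast markers, 8 were measured, and all 8 lay above these medians on every array, as did 7 of 9 measured mesenchymal and 4 of 4 measured Schwann markers. Of the adrenergic markers 2 were called higher (GATA3, 0.47, and TH, 0.35) and 1 lower (ISL1, -0.46), TH not after cyclic loess (adjusted p = 0.0682). Of 4 measured neuronal markers, all above the medians, none was called. Of 9 mesenchymal markers 5 had a difference above 0, and VIM (-0.72) and TWIST1 (-0.33) were called lower, TWIST1 not after cyclic loess (adjusted p = 0.0741). Of 4 Schwann markers SOX10 (0.34) and FOXD3 (0.29) were called higher, but neither after cyclic loess (0.26 and 0.12; adjusted p = 0.0612 and 0.367). Mean mesenchymal levels were 6.06 and 6.17 with the LSD1+8a shRNA and 6.21 and 6.14 with the control shRNA, and mean Schwann levels were 5.73 and 5.79 against 5.57 and 5.53. The part of these cell types in the results below was not tested.

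UNC5D had a log2 signal of 6.60 and 5.98 on the LSD1+8a shRNA arrays and of 8.23 and 8.02 on the control arrays. Both LSD1+8a shRNA arrays were thus below both control arrays, and all 4 were above the background medians. On LSD1+8a shRNA replicate 2 the background probes ran from 2.91 at GC count 13 to 6.13 at GC count 18. UNC5D, at 5.98, may thus be near background on that array. The difference of the means, 6.29 ± 0.44 with the LSD1+8a shRNA against 8.12 ± 0.15 with the control shRNA (SD, n = 2 each), was -1.84 ± 0.19 (SE), a 3.57-fold lower signal. Of 22465 genes, 3 had a lower difference than UNC5D. Genes within 0.5 of its mean level had a median difference of -0.03. In bulk RNA, fewer cells that express UNC5D and less UNC5D RNA per cell cannot be told apart. The 2 LSD1+8a shRNA arrays differed more from each other than the 2 control arrays did, and the difference was -2.15 without LSD1+8a shRNA replicate 1 and -1.52 without LSD1+8a shRNA replicate 2.

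**Figure D1:**
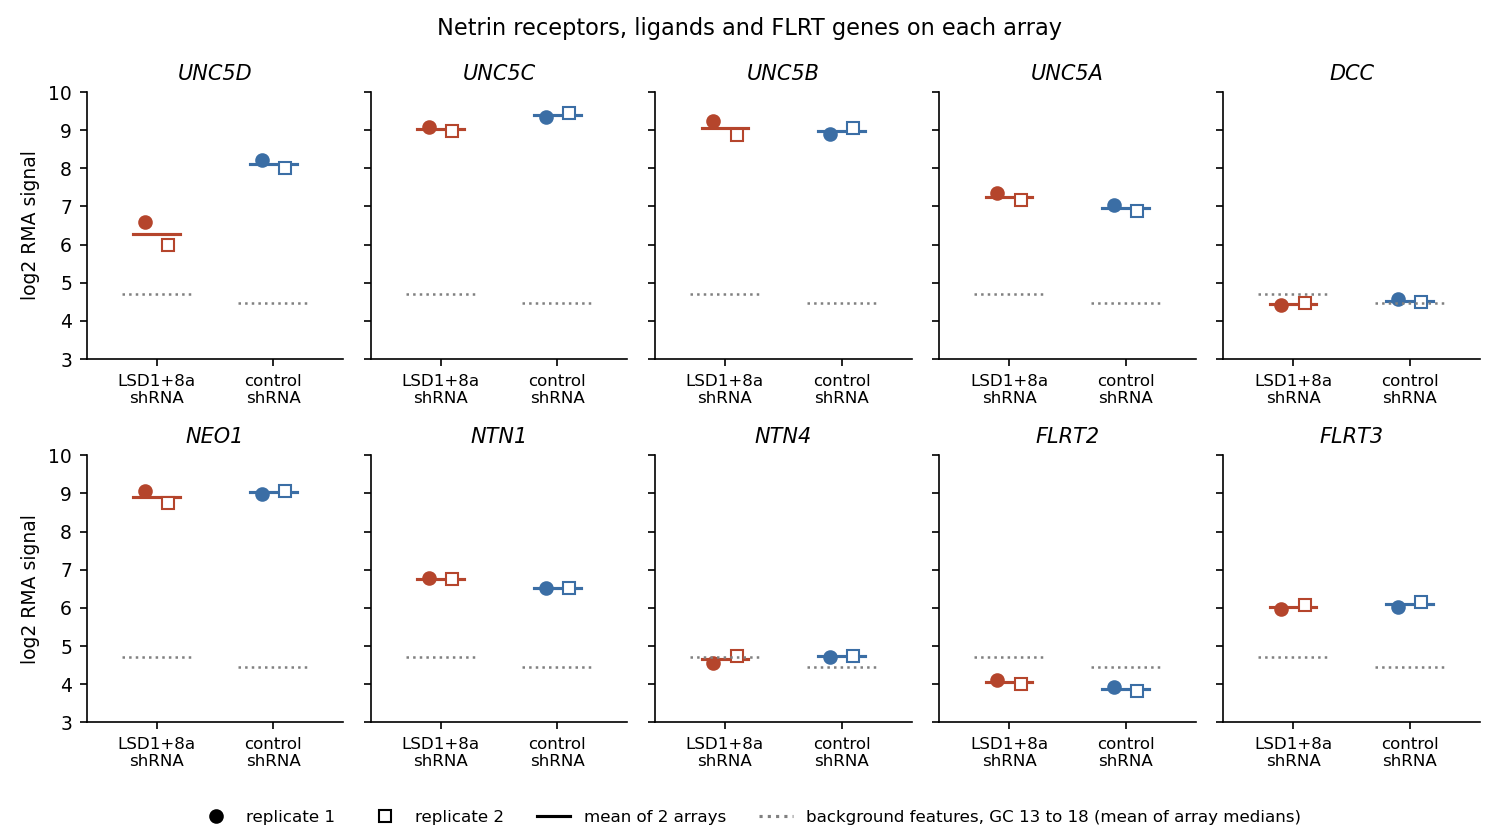
Log2 RMA signal of the 10 genes on each array, with LSD1+8a shRNA arrays left of control shRNA arrays in each panel. Filled circles are replicate 1, open squares replicate 2, solid bars the mean of 2 arrays, and dotted bars the median signal of background probes (GC count 13 to 18), averaged over the arrays of a group. UNC5D is lower with the LSD1+8a shRNA, UNC5C is slightly lower, and DCC, NTN4 and FLRT2 lie near or below the dotted bars.

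UNC5C, a repulsive netrin receptor of the same family, was the only gene among the other 9 that passed the test. It read 9.07 and 8.98 with the LSD1+8a shRNA and 9.35 and 9.46 with the control shRNA, and the groups did not overlap. The means were 9.03 ± 0.06 and 9.41 ± 0.07 (SD, n = 2 each), and UNC5C fell by 0.38 ± 0.09 (SE), or 1.30-fold (limma adjusted p = 0.0328). Genes within 0.5 of its level had a median difference of -0.09. The call depended on the scaling. The limma adjusted p was 0.0324 with array medians subtracted, 0.0640 after quantile normalization and 0.0556 after cyclic loess. Cyclic loess removes the dependence of the difference on signal level. With an array left out, its group has a single array, and the spread comes from the other group and from all genes. UNC5C was not called in those fits, but a call lost there cannot be read as particular to a gene, so only sizes are given. The difference was -0.42 and -0.33 without LSD1+8a shRNA replicate 1 or 2, and -0.43 and -0.33 without control shRNA replicate 1 or 2. The difference kept its sign in all these fits, between -0.43 and -0.25.

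UNC5A, which also signals repulsion and whose death domain is linked to apoptosis of neurons, read 7.34 and 7.16 with the LSD1+8a shRNA and 7.04 and 6.89 with the control shRNA. Both LSD1+8a shRNA arrays were above both control arrays. The difference of 0.29 ± 0.10 (SE; 95% interval 0.05 to 0.53) did not pass (limma adjusted p = 0.0689). It stayed above 0 in every alternative run, from 0.20 without LSD1+8a shRNA replicate 1 to 0.38 without LSD1+8a shRNA replicate 2. With the replicate number as a block UNC5A was called (limma adjusted p = 0.0321), but the labels do not say what those numbers pair.

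UNC5B, a netrin receptor also known from blood vessel guidance, read 9.25 and 8.88 with the LSD1+8a shRNA and 8.90 and 9.05 with the control shRNA, so the groups overlapped. Its difference was 0.09 ± 0.13 (SE; 95% interval -0.22 to 0.40; limma adjusted p = 0.620), and it was -0.10 without LSD1+8a shRNA replicate 1. UNC5B-AS1, the antisense gene of UNC5B, was looked up after its values were seen and read 8.11 and 8.18 with the LSD1+8a shRNA and 7.99 and 8.01 with the control shRNA (limma adjusted p = 0.208). The labels do not say whether the labelled cDNA keeps the strand, so signals of UNC5B and UNC5B-AS1 may not be separable.

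Within arrays, the UNC5A signal minus the UNC5C signal was 0.67 higher (log2) with the LSD1+8a shRNA than with the control shRNA, and UNC5B minus UNC5C was 0.47 higher. In both pairs the 2 groups did not overlap. For UNC5A minus UNC5B, the third of the 3 pairs compared, the value was 0.20 and the groups overlapped. These are descriptions, since a two-sided exact permutation test of 2 arrays against 2 cannot go below p = 0.333.

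**Figure D2:**
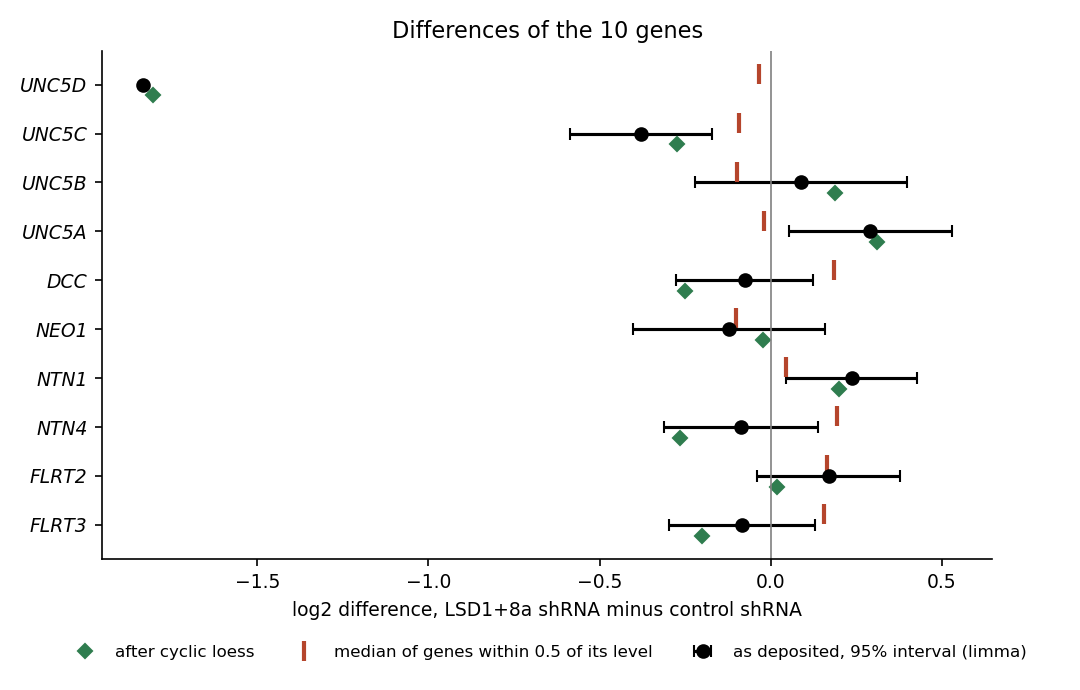
Log2 difference, LSD1+8a shRNA minus control shRNA, for each gene. Black points are the deposited values with limma's 95% interval (no interval for UNC5D, which was chosen for its difference), green diamonds the values after cyclic loess, and red ticks the median difference of genes within 0.5 of that gene's mean level. UNC5D lies at -1.84, and the other 9 between -0.38 and 0.29.

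The promoters of UNC5C and UNC5A are shown because these paralogues had the lowest and the highest difference among the 9 genes. RefSeq promoter windows were used for 7 of the 10 genes, and none for UNC5B, UNC5D and NTN1. Windows on the chromosome of UNC5D were left out of the search for member promoters. The 250 bases before the start are printed in the gene's direction, with motif matches on either strand in capitals. The motifs searched were AGGTCA, bound by retinoic acid receptors, CANNTG, the E-box, and GGGCGG, the GC box bound by SP and KLF factors. The UNC5C window is chr4:95548974-95549223 on the minus strand, and the UNC5A window chr5:176810309-176810558 on the plus strand (GRCh38.p14).
UNC5C: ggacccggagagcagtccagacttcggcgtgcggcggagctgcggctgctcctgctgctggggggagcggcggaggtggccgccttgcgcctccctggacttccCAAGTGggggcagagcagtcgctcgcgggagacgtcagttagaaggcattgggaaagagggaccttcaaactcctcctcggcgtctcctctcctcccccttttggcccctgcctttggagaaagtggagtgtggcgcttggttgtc
UNC5A: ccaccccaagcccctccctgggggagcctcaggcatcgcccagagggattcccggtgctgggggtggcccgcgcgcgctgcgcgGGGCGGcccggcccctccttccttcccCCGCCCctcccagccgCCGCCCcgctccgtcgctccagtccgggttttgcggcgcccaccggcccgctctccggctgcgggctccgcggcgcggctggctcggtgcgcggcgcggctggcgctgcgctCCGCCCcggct
The UNC5C window held 1 E-box and no other searched motif, and the UNC5A window held 4 GC boxes and no other searched motif, so no matches of different motifs overlap. Of 35116 RefSeq promoter windows of this length, 61.8% held an E-box, 42.6% a GC box and 12.1% AGGTCA. The UNC5C window was 65.6% G or C with 17 CpG dinucleotides, and the UNC5A window 81.2% with 36, against medians of 58.0% and 11 over all windows. No measurement of these promoters was made, and a match describes the letters only.

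DCC, the attractive netrin receptor and partner of UNC5 in repulsion, lay at the level of the background. It read 4.42 and 4.48 with the LSD1+8a shRNA and 4.57 and 4.49 with the control shRNA, above the background median on 2 of 4 arrays. The groups did not overlap by a margin of 0.0056 on the log2 scale. The limma adjusted p was 0.507, and no size is given for signals this low.

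NEO1, which binds netrins and the repulsive guidance molecules RGMA and RGMB, gave a clear signal and overlapping groups. It read 9.07 and 8.74 with the LSD1+8a shRNA and 8.99 and 9.07 with the control shRNA. The difference was -0.12 ± 0.12 (SE; 95% interval -0.40 to 0.16; limma adjusted p = 0.445), and it was 0.04 without LSD1+8a shRNA replicate 2.

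NTN1, the secreted ligand of DCC, neogenin and UNC5, read 6.79 and 6.75 with the LSD1+8a shRNA and 6.53 and 6.53 with the control shRNA. Replicates were close and the groups did not overlap. The difference of 0.24 ± 0.08 (SE; 95% interval 0.04 to 0.43), or 1.18-fold, did not pass (limma adjusted p = 0.0677), and genes within 0.5 of its level had a median difference of 0.04. NTN4, a netrin related to laminin beta chains, read 4.55 and 4.75 with the LSD1+8a shRNA and 4.72 and 4.75 with the control shRNA. It exceeded the background median on 3 of 4 arrays, and its difference was -0.09 ± 0.10 (SE; 95% interval -0.31 to 0.14; limma adjusted p = 0.506). Genes within 0.5 of the level of NTN4 had a median difference of 0.19, and NTN4 stood at -0.26 after cyclic loess (adjusted p = 0.0977).

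The FLRT genes did not pass either. FLRT2, the UNC5D ligand, read 4.11 and 4.00 with the LSD1+8a shRNA and 3.94 and 3.83 with the control shRNA. All 4 values were below the background medians, so no size is given, and the limma adjusted p was 0.178. FLRT2-AS1, its antisense gene, was also looked up after its values were seen and read 3.58 and 3.64 against 3.77 and 3.53 in control cells. FLRT3, which binds UNC5 receptors and ROBO1, read 5.96 and 6.07 with the LSD1+8a shRNA and 6.04 and 6.16 with the control shRNA. These groups overlapped (difference -0.08 ± 0.09, SE; 95% interval -0.30 to 0.13; limma adjusted p = 0.496). Genes within 0.5 of the level of FLRT3 had a median difference of 0.16, and FLRT3 stood at -0.20 after cyclic loess (adjusted p = 0.163).

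Over the 9 genes other than UNC5D, 0 were called higher, 1 lower and 8 not at an adjusted p of 0.05, and 3 of the 9 had an unadjusted limma p under 0.05 (UNC5C, UNC5A and NTN1). That is 11.1% called, against 23.3% of all genes. After cyclic loess 0 of the 9 were called, where 3.03% of all genes were higher and 7.85% lower (10.9% in all). The groups did not overlap for 5 of the 9, against 74.4% of all genes. Of the 10, 7 exceeded the background medians on every array, and the other 3 were DCC, NTN4 and FLRT2.

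**Figure D3:**
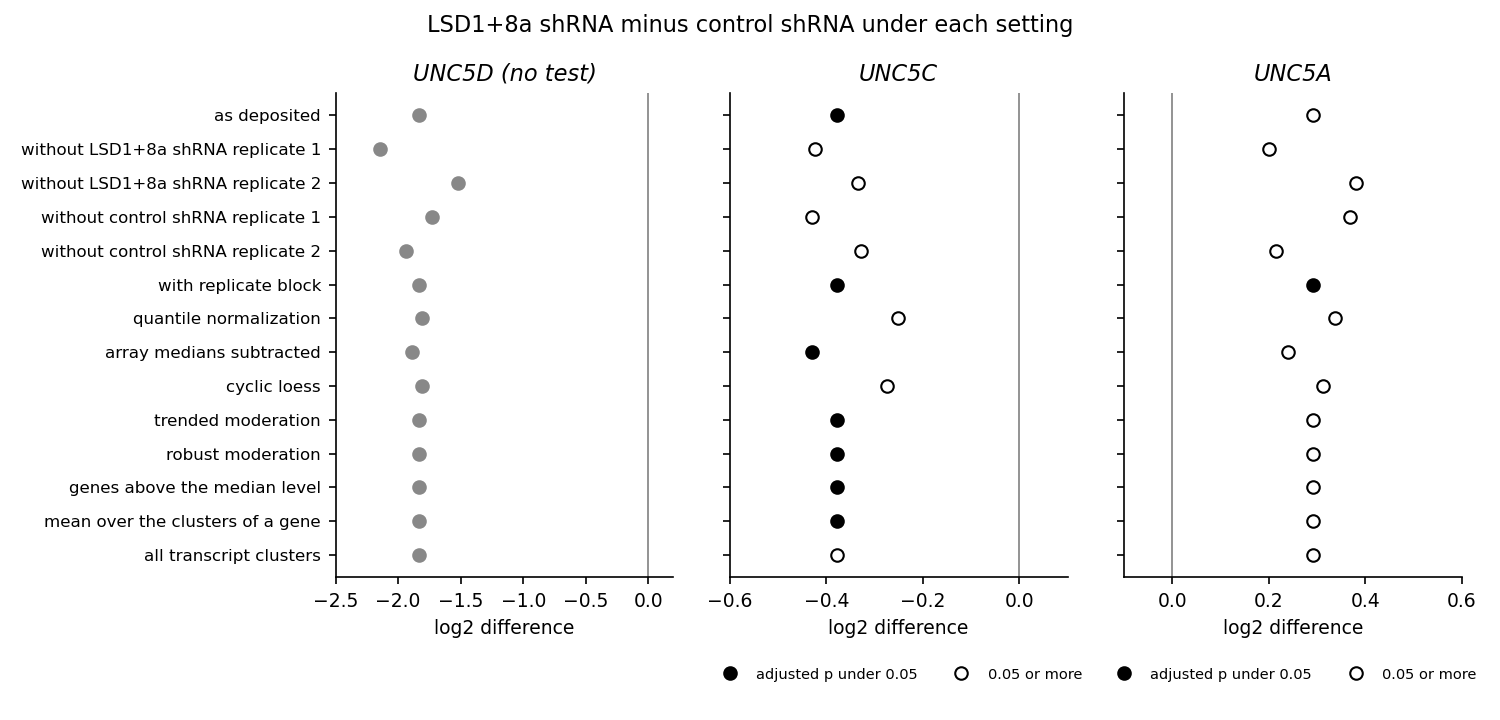
Log2 difference, LSD1+8a shRNA minus control shRNA, of UNC5D, UNC5C and UNC5A as deposited and under each alternative setting. For UNC5C and UNC5A, filled points have a limma adjusted p under 0.05 and open points do not, and UNC5D, shown in grey, has no test. UNC5D stays between -2.15 and -1.52, and UNC5C keeps its sign while its call is lost in 7 of 13 alternatives. Those 7 include the fits with an array left out, where a group has a single array.

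Of 55 other genes listed around these receptors, 52 were measured, and 3 were higher, 4 lower and 45 not called. The called share of 13.5% stands beside 23.3% for all genes, and the median difference was -0.02. The genes fall into 8 further ligands, 15 surface receptors and partners, 23 cytoplasmic partners of DCC and 6 genes of death signalling.

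Among the 8 ligands, 1 was higher, 1 lower and 6 not called (25% called, against 23.3% of all genes). Their median difference was 0.18 (0.05 after cyclic loess). NTNG2, a membrane-anchored netrin that binds an NGL adhesion protein and not DCC, read 8.15 and 7.58 with the LSD1+8a shRNA and 6.97 and 6.78 with the control shRNA. Both LSD1+8a shRNA arrays were above both control arrays, and NTNG2 rose by 0.99 ± 0.18 (SE), or 1.98-fold (limma adjusted p = 0.0206, and 0.0373 after cyclic loess). The difference was 0.70 without LSD1+8a shRNA replicate 1, 1.08 without control shRNA replicate 1 and 0.90 without control shRNA replicate 2. RGMB, a membrane-anchored ligand of neogenin, read 7.09 and 6.86 against 7.40 and 7.28 in control cells. It fell by 0.37 ± 0.11 (SE, limma adjusted p = 0.0470), and the call was lost after cyclic loess (0.0836). The difference was -0.25 without LSD1+8a shRNA replicate 2, -0.31 without control shRNA replicate 1 and -0.43 without control shRNA replicate 2. RGMA, its paralogue, had a difference of 0.27 (adjusted p = 0.0525).

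Among the 15 surface receptors and partners, 2 were higher, 1 lower and 12 not called (20% called, against 23.3% of all genes). Their median difference was 0.19 (0.04 after cyclic loess). GPC3, a cell surface proteoglycan of the glypican family whose core protein binds UNC5 receptors, read 7.06 and 7.36 with the LSD1+8a shRNA and 8.06 and 7.81 with the control shRNA. The groups were well apart, and GPC3 fell by 0.72 ± 0.13 (SE), or 1.65-fold (limma adjusted p = 0.0206, and 0.0442 after cyclic loess). The difference was -0.60 without control shRNA replicate 1 and -0.85 without control shRNA replicate 2. DSCAML1, an adhesion receptor related to DSCAM, rose by 0.34 ± 0.10 (SE; limma adjusted p = 0.0465), and IGDCC4, a member of the DCC subclass of immunoglobulin receptors, by 0.30 ± 0.09 (SE; limma adjusted p = 0.0495). Neither was called after cyclic loess (adjusted p = 0.117 and 0.110). With an array left out the differences ran from 0.24 to 0.45 for DSCAML1 and from 0.23 to 0.37 for IGDCC4. Genes of their levels had median differences of 0.17 and 0.13. The latrophilins ADGRL1, ADGRL2 and ADGRL3, partners of FLRT proteins, were not called (adjusted p = 0.0560, 0.415 and 0.693), with differences of 0.32 for ADGRL1 and -0.10 for ADGRL2 (0.01 after cyclic loess). The 4 teneurins, which bind latrophilins, were not called either. Differences were 0.19 for TENM2 (0.01 after cyclic loess), -0.27 for TENM3 and -0.05 for TENM4. ADGRL3 and TENM1 lay below the background medians on every array, so no size is given for them.

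**Figure D4:**
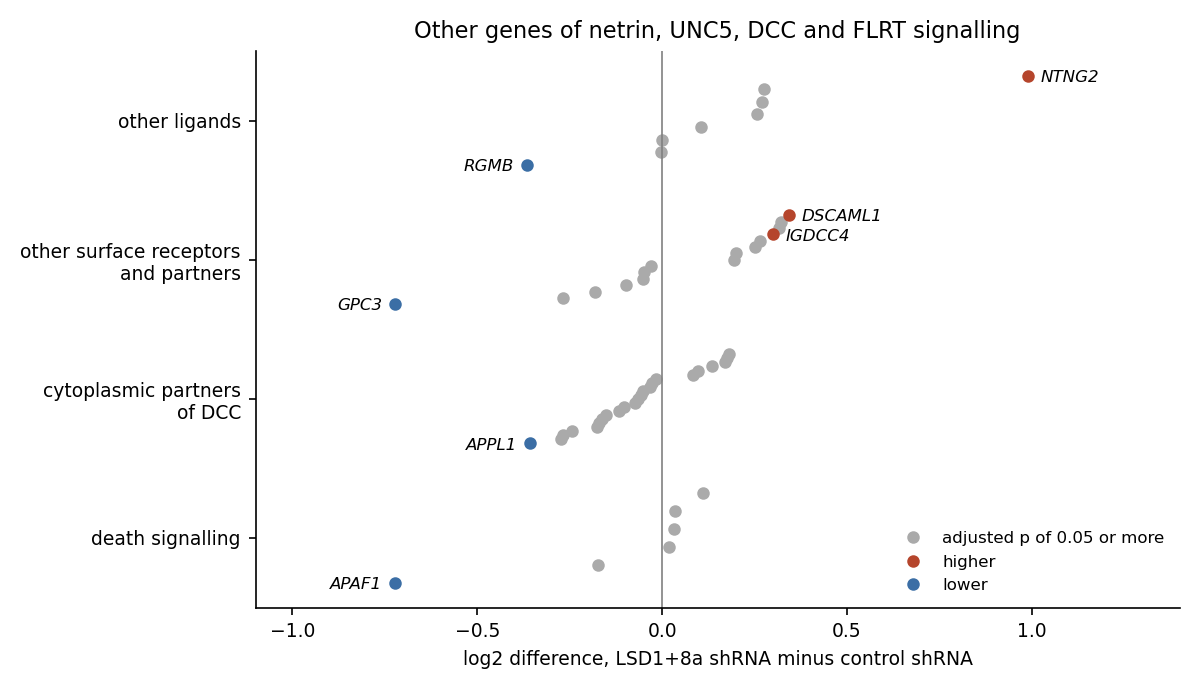
Log2 difference, LSD1+8a shRNA minus control shRNA, for the 52 measured genes around the netrin receptors, in 4 groups. Red points were called higher and blue points lower (limma adjusted p under 0.05), and grey points were not called. NTNG2 stands highest at 0.99, and GPC3 and APAF1 lowest at -0.72 each.

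Of 23 cytoplasmic partners of DCC and growth cone effectors, 0 were higher, 1 was lower and 22 were not called. That is 4.35% called, against 23.3% of all genes, and the median difference was -0.06. APPL1, an endosomal adaptor that binds the cytoplasmic part of DCC, read 7.60 and 7.59 against 7.90 and 8.00 in control cells and fell by 0.36 ± 0.09 (SE; limma adjusted p = 0.0338). It was not called after cyclic loess (adjusted p = 0.0527) or with any array left out (0.0666 to 0.195). NCK1, not called as deposited (-0.27, limma adjusted p = 0.0658), was called lower after cyclic loess (-0.41, adjusted p = 0.0499). NCK1 was the only gene of this list called there, and genes within 0.5 of its level had a median difference of 0.19. The kinases PTK2, FYN and SRC, which phosphorylate DCC or dock on it, had differences of -0.06, -0.10 and 0.17, and the GTPases RAC1 and CDC42 of -0.07 and -0.16, all without a call.

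Of 6 death signalling genes, 1 was lower, 0 were higher and 5 were not called (16.7% called, against 23.3% of all genes). APAF1, the scaffold that activates caspase-9, read 5.63 and 6.03 with the LSD1+8a shRNA and 6.48 and 6.63 with the control shRNA, with no overlap. APAF1 fell by 0.72 ± 0.14 (SE), or 1.65-fold (limma adjusted p = 0.0222, and 0.0339 after cyclic loess). Its difference was -0.79 without control shRNA replicate 1 and -0.65 without control shRNA replicate 2. DAPK1, the kinase recruited by UNC5B, had a difference of 0.02 and was not called (adjusted p = 0.870).

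The 3 nearest measured genes on each side of UNC5D in the RefSeq order were set beside it. On 1 side, DUSP26, RNF122 and SNORD13 had differences of 0.02, -0.33 and -0.26, and on the other LOC100507403 read near the background medians and was not called, while RNA5SP264 and KCNU1 lay below the background medians on every array. Of the 6, RNF122, a ubiquitin ligase gene, was called lower (limma adjusted p = 0.0407, and 0.0675 after cyclic loess). That is 16.7% called, against 23.3% of all genes.

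The genes whose 4 values most resembled those of UNC5D were found by the Euclidean distance between log2 signals after subtracting each gene's mean. The nearest 5 of 22465 were VCAN-AS1 (distance 0.33), SNORA14B (0.33), SNORA12 (0.38), SNORD116-24 (0.42) and SNORD8 (0.42). They are an antisense RNA and 4 small nucleolar RNAs. With 4 arrays this likeness describes mainly the size of the difference and the order of the 2 LSD1+8a shRNA arrays: each of the 5 read higher on LSD1+8a shRNA replicate 1 than on replicate 2, as UNC5D did.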

How the data were processed

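Signals of 4 arrays (2 per group) of an Affymetrix human transcriptome design (version 2) were used, from 250 ng of total RNA per array. The authors deposited log2 signals from RMA, as the submitters' processing notes name it. For the RMA software, the annotation used and the build, nothing is given in the sources used here. Detection calls are not part of RMA, so low signal and no expression look alike.

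Of 67528 transcript clusters, 23781 had a single symbol in the platform's gene table and gave 22465 genes, each by its cluster of highest mean. LSD1+8a shRNA minus control shRNA was fitted with limma 3.58.1 (lmFit and eBayes, R 4.3.3) on the deposited log2 values, without a filter or replicate term. P-values were adjusted by Benjamini-Hochberg over all 22465 genes (threshold 0.05). The method was tested on simulated data, where it recovered most large changes but few as small as that of UNC5C. That simulation held fewer changed genes than were called here, so its recovery rates do not carry over to these data. A gene without a call may still differ. Precision is limited by 2 arrays per group, and the spread behind each p-value is that between these arrays and may be technical. Deviations of same-numbered arrays correlated at 0.02 over genes, so no deviation shared by number was seen. The labels do not say whether the replicate numbers pair cultures or runs.

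The members, the 4 lists of related genes and the marker lists were chosen with earlier results of these data known. The genes named are the members, KDM1A, up to 4 called genes of each related list by size, the 5 genes of most similar pattern to UNC5D, and its 3 nearest measured genes on each side. Others named beside them illustrate a list and were chosen after their values were seen. Listed genes without a single-symbol cluster are not analysed here. Gene names and order and promoter sequences are from RefSeq (GRCh38.p14). Alternatives were leaving out each array, a replicate block, other scalings, moderation, a level filter, cluster choice and other thresholds. Figures were drawn with matplotlib 3.10.9.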

Additional observations from a re-analysis of the deposited data

How the results depend on the processing

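Limma called 5245 of 22465 genes, 1 of the 9 members other than UNC5D and 7 of the 52 related genes. With an array left out it called 0 to 2834 genes, 0 members and 0 to 4 related genes. Without control shRNA replicate 1 or 2 no gene was called (0 of 22465, with 9835 and 5339 below an unadjusted p of 0.05), a fit whose spread comes from the LSD1+8a shRNA pair and all genes. The differences of NTNG2 (1.08 and 0.90), GPC3 (-0.60 and -0.85) and APAF1 (-0.79 and -0.65) stayed near their deposited sizes there. With the replicate number as a block it called 7954 genes, 2 members (UNC5C and UNC5A, adjusted p = 0.0321) and 14 related genes. The counts were 3315 genes and 0 members after quantile normalization, 2443, 0 and 4 related genes after cyclic loess, and 881 and 0 over all 67528 transcript clusters. At an adjusted p of 0.01 they were 176, 0 and 0, and at 0.1 they were 9576, 3 and 16. The share of calls on the higher side was 51.9% as deposited, 28.8% with array medians subtracted and 27.8% after cyclic loess. The difference of UNC5D ran from -2.15 to -1.52. Leaving out an array turned the sign of UNC5B (-0.10 to 0.27), NEO1 (-0.29 to 0.043) and NTN4 (-0.18 to 0.013). The level filter removed DCC, NTN4, FLRT2 and FLRT3. The cause of these changes was not tested. DCC, NTN4 and FLRT2 are limited by signal near background.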
